A study of Mus musculus with 3 samples.

Results

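The 32 genes described here mark macrophages and dendritic cells, and they were followed in RNA from follicle-associated epithelium of the mouse small intestine. They were chosen by name: each is the single gene symbol of at least 1 probe set on the Affymetrix array, and each gene is represented by its brightest probe set on average over the 3 arrays. All 32 were found among 18193 genes with a single symbol. The data are 1 array of wild type C57BL/6 mice and 2 arrays of C57BL/6 mice depleted of RBP-J, which carried VillinCre and Rbpjflox/flox, all untreated. The depleted arrays are called KO1 and KO2 here, after their titles. The labels do not say that they came from separate animals, so p-values measure the spread between these samples, which may be technical. Age, sex and the number of animals per sample are not given in the sources used here.

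RBP-J binds DNA and passes Notch signals on to target genes, and the Villin promoter drives Cre in intestinal epithelial cells. Macrophages and dendritic cells are not epithelial: they lie in the dome beneath this epithelium, reach into it and take up the particles that M cells carry across. They clear bacteria and dead cells with complement, Fc receptors and lectins, and dendritic cells present what they take up to T cells. Several of the members are also expressed by B cells or by epithelium, as is said where they are described or beside the B cell and epithelial markers. In such bulk samples, fewer cells of a type and less RNA per cell cannot be told apart.

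Intensities are linear values in multiples of the array median, which is 1 in every array. Differences are on the log2(value + 0.248) scale, depleted minus wild type, where 0.248 is a pseudocount that understates the folds of dim genes. The median difference over the 11885 genes tested was -0.003 in KO1 and 0.22 in KO2, and this upward shift of KO2 applies to every KO2 difference given here. Epithelial markers were bright in all 3 arrays, with the galectin Lgals4, the brightest of them, at 128.3, 131.1 and 168.8 in wild type, KO1 and KO2. Rbpj itself was lower in KO1 by all 3 of its probe sets, at 7.15, 5.37 and 3.79 in wild type and 2.72, 4.14 and 2.30 in KO1. In KO2 they read 5.74, 4.92 and 4.21, the last above wild type. No source used here places the 3 against the floxed part of Rbpj, so they check the deletion in neither array, and KO1 and KO2 are taken as depleted from their labels. Xist, the X-inactivation RNA of female cells, read 0.297 in wild type against 42.8 and 43.4, so that sex-linked expression and genotype divide the arrays alike and cannot be told apart.

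Of the 32 genes, 25 passed the filter on mean intensity and were tested, and 7 were too dim. None of the 25 was called in the depleted arrays against wild type by limma, with 0 at an unadjusted p under 0.05 and an adjusted p = 0.9997 for each. Over all genes tested, limma called 0.0841% at an adjusted p under 0.05 and 2.27% had an unadjusted p under 0.05. The median fitted log2 difference of the 25 was -0.00, against 0.11 over all genes tested. KO1 and KO2 gave the only measured spread, which the fit takes to hold for wild type too.

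The depleted arrays stood on opposite sides of wild type for many of these genes. In KO1, 20 of 25 were lower than wild type, against 50.2% of all genes tested, and the median log2 difference was -0.30. In KO2, 16 of 25 were higher, against 69.7% of all genes tested, and the median was 0.28, close to that array's median over all genes. With quantile normalization, which removes that shift, 20 of 25 were lower in KO1 and 14 of 25 higher in KO2, against 50.1% and 51.7% of all genes tested. Taken gene by gene, 12 were lower in KO1 and higher in KO2 (48% of the members, 30.7% of all genes tested). A further 8 were lower in both (32%, against 19.5%), 4 were higher in both (16%, against 39.0%) and 1, Clec7a, was higher in KO1 alone (10.8% of all genes tested). With quantile normalization the counts were 10 on opposite sides, against 20.6% of all genes, and 10 lower in both, against 29.4%, so that the balance between these patterns depends on the scaling. Fcgr2b and Clec4n, 2 of the 25, were at least 2-fold lower in KO1, where 3.23% of all genes tested were. Both arrays are set against the same wild type array. No tested member was 2-fold higher, or 2-fold lower, in both, a pattern held by 0.841% of all genes tested on the higher side and 0.488% on the lower.

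**Figure D1:**
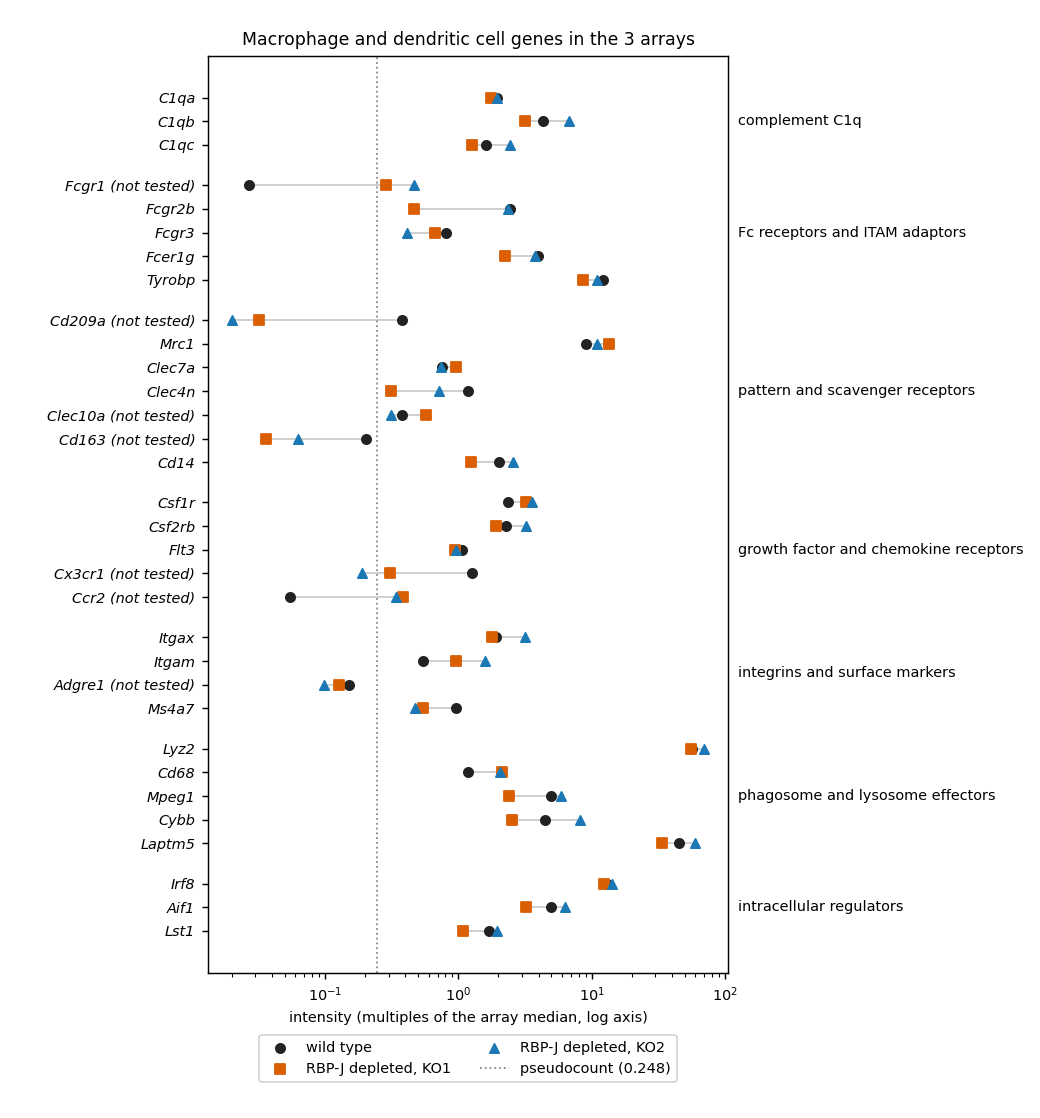
Intensity of each of the 32 genes in the 3 arrays, on a log axis in multiples of the array median, grouped by role; each point is 1 array, the line joins the lowest and highest, and the dotted line is the pseudocount of 0.248. In 12 of the 25 tested genes the KO1 point lies below wild type and the KO2 point above it, and the genes marked as not tested have no point above 0.574 other than wild type Cx3cr1 at 1.27.

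Promoter sequence was looked up for the members that are described below for different patterns: Mrc1 and Cd68, higher in both depleted arrays, C1qb and Cybb, lower in KO1 and higher in KO2, and Cx3cr1, lower in both. The sequences are the 250 bases before the gene's start from RefSeq, build GRCm38.p6, read 5′ to 3′ along the gene. Capitals mark GAGGAA or its reverse complement TTCCTC, the core of sites for PU.1, the factor that directs myeloid gene expression, and TGGGAA or its reverse complement TTCCCA, the core of sites for RBP-J.
Mrc1 promoter, chr2:14229164-14229413, + strand: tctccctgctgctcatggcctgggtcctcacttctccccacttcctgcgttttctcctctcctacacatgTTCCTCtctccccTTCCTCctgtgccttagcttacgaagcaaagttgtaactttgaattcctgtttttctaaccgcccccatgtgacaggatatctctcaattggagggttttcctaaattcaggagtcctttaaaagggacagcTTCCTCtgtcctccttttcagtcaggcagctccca
Cd68 promoter, chr11:69666171-69666420, - strand: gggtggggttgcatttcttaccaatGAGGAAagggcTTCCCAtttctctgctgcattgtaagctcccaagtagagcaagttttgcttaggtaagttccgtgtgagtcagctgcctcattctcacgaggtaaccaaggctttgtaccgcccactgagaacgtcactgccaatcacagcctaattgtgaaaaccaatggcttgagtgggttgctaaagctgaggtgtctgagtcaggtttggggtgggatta
C1qb promoter, chr4:136886201-136886450, - strand: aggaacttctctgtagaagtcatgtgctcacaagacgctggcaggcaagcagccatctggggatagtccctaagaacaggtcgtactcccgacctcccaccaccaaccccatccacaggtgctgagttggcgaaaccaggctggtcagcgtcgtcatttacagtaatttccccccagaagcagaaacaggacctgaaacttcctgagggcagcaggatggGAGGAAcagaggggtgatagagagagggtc
Cybb promoter, chrX:9469325-9469574, - strand: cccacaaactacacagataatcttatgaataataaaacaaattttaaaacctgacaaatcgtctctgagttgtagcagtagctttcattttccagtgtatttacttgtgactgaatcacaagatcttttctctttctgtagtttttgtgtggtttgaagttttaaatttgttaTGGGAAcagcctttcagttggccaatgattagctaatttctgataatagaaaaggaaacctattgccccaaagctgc
Cx3cr1 promoter, chr9:120068297-120068546, - strand: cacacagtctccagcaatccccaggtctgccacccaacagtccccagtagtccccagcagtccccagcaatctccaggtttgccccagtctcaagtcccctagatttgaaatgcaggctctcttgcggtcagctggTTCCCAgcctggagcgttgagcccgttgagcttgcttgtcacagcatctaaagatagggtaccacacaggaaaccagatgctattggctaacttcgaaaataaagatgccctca

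Mrc1 held the PU.1 core at 3 places, all on the opposite strand, beginning 180, 167 and 35 bases before the start. C1qb held it 30 bases before the start on the gene's own strand. Cd68 held the PU.1 core at 225 and the RBP-J core at 214 bases before the start, while Cybb and Cx3cr1 held the RBP-J core at 77 and 114 bases. Of the 32 members, 23 had a promoter in the table. Within 300 bases, 250 before the start and 50 after it, 12 of the 23 held the PU.1 core on either strand (52.2%), as did 31.3% of all genes in the table. The RBP-J core was held by 6 of the 23 (26.1%) and by 28.3% of all genes. The cores share the letters GGAA, and no match to one overlapped a match to the other in these promoters. Such short matches are a description of the letters and not binding sites.

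C1qa, C1qb and C1qc encode the chains of C1q, which opens the classical complement pathway and is made by tissue macrophages. The genes are neighbours in the order C1qb, C1qc, C1qa. C1qb (probe set 1437726_x_at) read 4.31 in wild type, 3.19 in KO1 and 6.74 in KO2, a mean of 4.96 ± 2.51 (SD, n = 2). Its fitted log2 difference was 0.10 (SE 0.50). C1qc (1449401_at) read 1.61, 1.26 and 2.43, and C1qa (1417381_at) 1.96, 1.76 and 1.94. For C1qb and C1qc wild type lies between KO1 and KO2, while the C1qa values are close together. The other C1qb probe sets gave the same order, 1434366_x_at at 4.30, 2.88 and 5.37 and the dimmer 1417063_at at 1.49, 0.170 and 2.44, so that the size of the gap in KO1 differed between probe sets.

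The Fc receptors bind antibody-coated particles, and Fcer1g and Tyrobp (DAP12) are the adaptors through which such receptors signal. All 4 tested genes of this group were lower than wild type in both depleted arrays, and none was called. Tyrobp read 12.1 in wild type, 8.64 in KO1 and 11.0 in KO2 (log2 difference -0.31, SE 0.47), and Fcer1g 3.95, 2.22 and 3.75 (-0.42, SE 0.51). Fcgr3, an activating receptor, read 0.805, 0.665 and 0.415. Wild type was thus the highest array for Tyrobp, Fcer1g and Fcgr3, with fitted differences smaller in size than their standard errors. The fitted difference of Fcgr2b, described next, was larger than its standard error (-0.97, SE 0.56).

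Fcgr2b, the inhibitory Fc receptor, which B cells also carry, had the lowest difference of all tested members in KO1. It read 2.43 in wild type, 0.468 in KO1 and 2.37 in KO2, so the lower mean of 1.42 ± 1.35 (SD, n = 2) comes from 1 array (log2 differences -1.90 and -0.03, limma adjusted p = 0.9997). Its other probe sets were lower in KO2 too: 1455332_x_at gave -1.60 and -0.28, 1451941_a_at -1.40 and -0.81, and 1435476_a_at -1.94 and -1.72. The remaining one, 1447622_at, read under the pseudocount in all arrays. Averaged over its probe sets, the fitted difference of Fcgr2b was -0.96 with SE 0.44 (limma unadjusted p = 0.0358, adjusted p = 0.99999). Fcgr1, the high-affinity receptor of macrophages, was too dim to be tested, at 0.027 against 0.286 and 0.467, and its other probe set went the opposite way at 0.204 against 0.181 and 0.131.

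Among receptors that recognise sugars, bacterial products or dead cells, the members gave different orders of the arrays. Mrc1, the mannose receptor of tissue macrophages, was above wild type in both depleted arrays, at 8.996 in wild type against 13.6 and 11.0, a mean of 12.3 ± 1.86 (SD, n = 2). The log2 differences were 0.58 and 0.28, the second close to that array's median over all genes, and the fit gave 0.43 (SE 0.47). Clec4n, which encodes Dectin-2, a receptor for fungal sugars, read 1.18 against 0.313 and 0.714 (-0.96, SE 0.63), wild type being the highest. Its other probe set, near the pseudocount, read 0.283 against 0.221 and 0.322. Cd14, the co-receptor for lipopolysaccharide, read 2.01 against 1.26 and 2.58, with wild type in between. Clec7a, which encodes Dectin-1, read 0.761, 0.970 and 0.737.

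The remaining receptors of this group were dim and were not tested. Cd209a, a DC-SIGN relative of dendritic cells, read 0.380 in wild type, 0.032 in KO1 and 0.020 in KO2, so that in depleted tissue it lies far under the pseudocount. Cd163, the haemoglobin scavenger receptor of resident macrophages, was under the pseudocount in all 3 arrays at 0.203, 0.036 and 0.063. Clec10a, a lectin for galactose-type sugars, read 0.381, 0.574 and 0.312. These values are too low for their order to be read as a difference.

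Growth factor and chemokine receptors set how many of these cells a tissue holds. Csf1r, the receptor on which most macrophages depend, read 2.38 in wild type against 3.22 and 3.58 by its brightest probe set (0.47, SE 0.51, and 0.068 with its probe sets averaged), above wild type in both. The other probe sets of Csf1r differed: 1423593_a_at read 2.12, 1.75 and 2.01, and 1419873_s_at 1.60, 0.897 and 2.31. Its direction is therefore not settled. Csf2rb, the shared beta chain of the receptors for GM-CSF, IL-3 and IL-5, read 2.27, 1.91 and 3.22, and Flt3, the receptor that dendritic cell precursors need, 1.07, 0.944 and 0.962. Csf2rb has a close relative in the mouse, Csf2rb2, and how far its probe sets tell the pair apart was not tested.

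Cx3cr1, the fractalkine receptor of gut macrophages that reach between epithelial cells, had a mean of 0.588 and so lay just under the filter of 0.598. It read 1.27 in wild type against 0.308 and 0.190, log2 differences of -1.45 and -1.79, with both depleted arrays below wild type. Its other probe set, 1450019_at, read 0.483 against 0.286 and 0.499, with no such gap in KO2. With no filter on intensity, the fitted difference of Cx3cr1 was -1.62 with SE 0.50 (limma unadjusted p = 0.0135, adjusted p = 1), and -0.86 with a pseudocount of 1. In the fit with no filter 4 of the 32 genes had an unadjusted p under 0.05, the others being Cd209a (-1.20), Fcgr1 (1.17) and Ccr2 (1.01). None of these 3 read above 0.467 in any array, and with a pseudocount of 1 they gave -0.43, 0.42 and 0.37. The share of all genes at an unadjusted p under 0.05 in the fit with no filter is not given here. On the unfiltered scale Cx3cr1 and Cd209a passed 2-fold in both depleted arrays, the second at values too low to be read as a difference. Cx3cl1, the ligand of Cx3cr1, which epithelium makes, read 9.19 against 10.6 and 10.6. Ccr2, the receptor by which monocytes enter tissue, read 0.055 against 0.386 and 0.340. Its next probe set, 1421186_at, went the other way at 0.301 against 0.164 and 0.154.

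**Figure D2:**
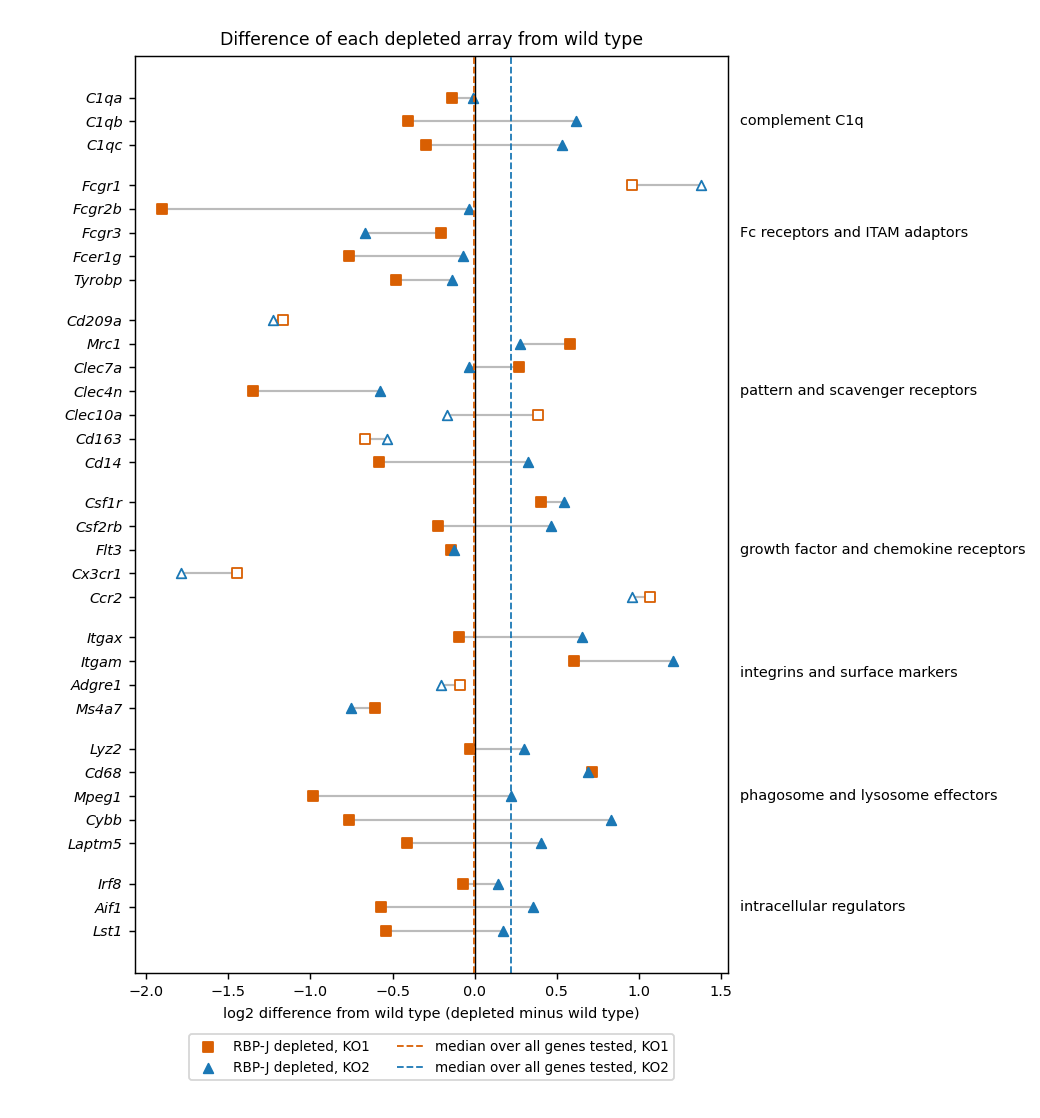
Log2 difference of KO1 (square) and KO2 (triangle) from wild type for each gene, grouped by role; open symbols are genes too dim to be tested, and dashed lines are the medians over all 11885 genes tested, -0.003 and 0.22. Grey lines that cross 0 mark genes on opposite sides of wild type in the depleted arrays, as for Cybb at -0.76 and 0.83; Cx3cr1 and Cd209a lie left of -1 in both arrays.

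Of the integrins and surface markers, Itgam, which encodes CD11b, had the largest difference above wild type among tested members. It read 0.543 in wild type, 0.954 in KO1 and 1.58 in KO2 (log2 differences 0.60 and 1.21, fit 0.91, SE 0.59, limma adjusted p = 0.9997). In KO2 it was the 1 tested member at least 2-fold above wild type, where 3.56% of all genes tested were. Itgax, which encodes CD11c of dendritic cells, read 1.93, 1.79 and 3.18, higher in KO2 alone. Ms4a7, a membrane protein of macrophages, read 0.962, 0.548 and 0.470, but its dim second probe set gave 0.015, 0.199 and 0.256. Adgre1, which encodes F4/80, the classic surface marker of mouse macrophages, was under the pseudocount in every array at 0.151, 0.127 and 0.098, so the defining markers Adgre1 and Cd163 were near 0 here.

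Genes of the phagosome and lysosome gave wide gaps between KO1 and KO2. Cybb, the catalytic subunit of the phagocyte NADPH oxidase, read 4.49 in wild type, 2.54 in KO1 and 8.16 in KO2, a mean of 5.35 ± 3.97 (SD, n = 2), and its other 2 probe sets gave the same order. Cybb is X-linked, and sex-linked expression divides the arrays as genotype does. Mpeg1, perforin-2, a pore-forming protein of macrophages, read 4.99, 2.40 and 5.87. Laptm5, a lysosomal protein of leukocytes in general, read 44.9, 33.7 and 59.4. For each of these KO1 is the lowest and KO2 the highest, and the fitted differences lie between -0.38 for Mpeg1 and 0.03 for Cybb, which was -0.066 with quantile normalization.

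Cd68 did not share that order, and Lyz2 in KO1 was close to wild type. Cd68, a lysosomal glycoprotein of macrophages, read 1.19 in wild type, 2.11 in KO1 and 2.07 in KO2, a mean of 2.09 ± 0.0318 (SD, n = 2). The depleted values nearly coincide, above wild type, with log2 differences of 0.72 and 0.69, and the difference of 0.70 (SE 0.54) did not pass the test (limma adjusted p = 0.9997). Cd68 has 1 probe set here. Lyz2, lysozyme of myeloid cells, read 56.8, 55.7 and 70.0, and Lyz1, the nearly identical lysozyme of Paneth cells, 130.3, 160.5 and 153.3. Cross-hybridisation between the pair was not tested, so the Lyz2 value is uncertain as a measure of phagocytes.

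Irf8, a transcription factor that dendritic cells and monocytes need and that B cells also express, read 12.9, 12.3 and 14.3 (log2 differences -0.07 and 0.14), and its second probe set 10.8, 13.1 and 13.8. Aif1, an actin-binding protein of macrophages that M cells also make, read 4.93, 3.23 and 6.36. Lst1, a small adaptor protein of leukocytes, read 1.69, 1.08 and 1.94. By their brightest probe sets all 3 were lowest in KO1 and highest in KO2, with Irf8 the nearest of the 3 to wild type on both sides.

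Genes with several probe sets allow a check of these orders. There were 12 such genes among the 55 probe sets of the members. In 5 of the 12 all probe sets lay on the same side of wild type in KO1, in 6 in KO2, and in 3, C1qb, Csf2rb and Cybb, in both. These 3 were lower in KO1 and higher in KO2 by every probe set. Of the probe sets whose sign differs from the brightest, 1 each of Fcgr1, Fcgr2b and Laptm5 read under the pseudocount in all arrays, and their sign carries little.

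**Figure D3:**
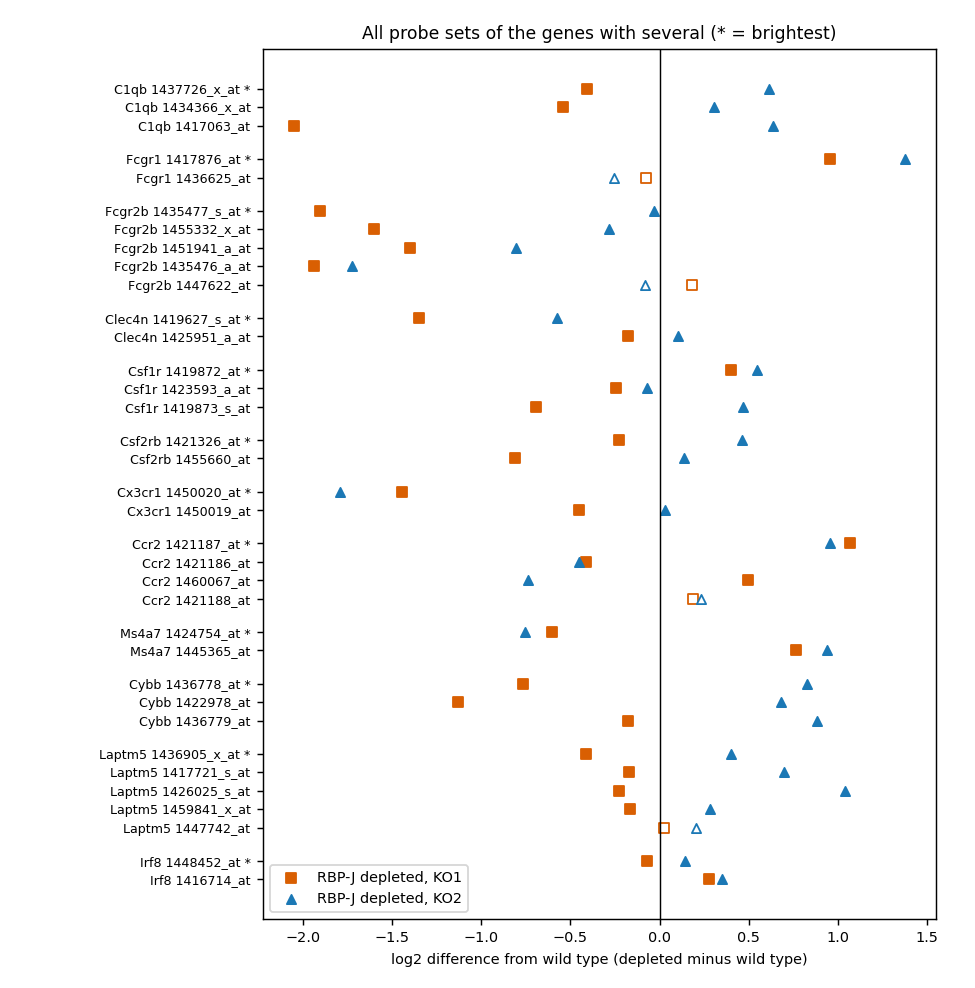
Log2 difference from wild type of every probe set of the 12 genes that have several, KO1 as squares and KO2 as triangles; open symbols read under the pseudocount in all arrays and an asterisk marks the brightest. The probe sets of C1qb, Csf2rb and Cybb lie left of 0 in KO1 and right of 0 in KO2, while those of Csf1r, Ccr2 and Ms4a7 lie on both sides.

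Pan-leukocyte markers followed the same order of arrays, and B cell markers did so in part. Over all genes tested, 50.2% were lower in KO1 and 69.7% were higher in KO2. All 8 pan-leukocyte genes were lower than wild type in KO1 (median -0.52), and 7 of 8 were higher in KO2 (median 0.51). Their summed intensity was 160.4 in wild type, 106.3 in KO1 and 205.6 in KO2. Ptprc, which encodes CD45, chosen after its values were seen, read 20.4, 13.8 and 31.1, and Lcp1, an actin bundler of leukocytes, 40.5, 25.3 and 36.3. All 11885 genes tested summed to 127463, 131482 and 157588, so that KO2 was the highest array there too. The 32 members summed to 183.7, 158.5 and 226.1 in the same order. Lyz2 and Laptm5, the first uncertain as a measure of phagocytes and the second shared by leukocytes in general, made up 101.7, 89.4 and 129.3 of these sums, and the other 30 members summed to 82.0, 69.1 and 96.8.

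B cell markers were lower in 8 of 9 genes in KO1 (median -0.90), against 50.2% of all genes tested. They were higher in 5 of 9 in KO2 (median 0.19), against 69.7%, with 4 of the 9 above that array's median over all genes. Their summed intensities were 55.1, 28.6 and 69.7, against 127463, 131482 and 157588 over all genes tested. Of the 9, 4 lay on opposite sides of wild type in KO1 and KO2 and 4 were lower in both, among them Ms4a1 (CD20) at 11.1, 4.12 and 6.73 and the complement receptor Cr2 at 2.01, 1.04 and 0.949, while Ighm, of IgM, gave 13.1, 9.72 and 27.0. T cell markers were lower in 6 of 8 in KO1 (median -0.10) and higher in 8 of 8 in KO2 (median 0.41), against the same 50.2% and 69.7%. Cd3e and Cd3g, of the T cell receptor complex, were at 2.59, 2.69 and 4.15 and at 2.73, 3.04 and 3.81, and the granzyme Gzma at 34.4, 31.2 and 35.6.

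Epithelial markers were higher in 8 of 8 in both arrays, with medians of 0.21 and 0.36. Of all genes tested, 39.0% were higher in both arrays. The keratin Krt18 read 53.1, 74.4 and 66.4, and E-cadherin (Cdh1) 65.6, 81.5 and 81.2. Paneth cell markers were higher in 5 of 5 in both arrays, with medians of 0.83 and 0.30, the protease Mmp7 at 20.8, 50.8 and 27.4 and the phospholipase Pla2g2a at 1.60, 2.78 and 2.998. M cell markers had medians of 0.08 and 0.51, with Marcksl1 at 60.4, 84.9 and 94.6 and the RANKL receptor Tnfrsf11a at 7.74, 8.98 and 12.6. Of the 8, 5 were higher in both arrays, against 39.0% of all genes tested. The others, named after their values were seen, were lower in KO1. Gp2 read 19.8, 9.9 and 32.6, Spib 38.9, 33.8 and 67.6, and Sox8 9.67, 5.62 and 9.53. Limma called none of the tested genes of these 6 lists, and Ms4a1 and Mmp7 were the 2 at an unadjusted p under 0.05. The ratio of 3' to 5' control probe sets of Gapdh, a sign of RNA quality, was 1.83 in wild type, 2.28 in KO1 and 1.54 in KO2. The same ratio of Actb, the other control, differed less between the arrays, at 1.112, 1.149 and 1.017. The part of these leukocytes and of RNA quality in the members' values was not tested. Without Fcgr2b, Irf8, Laptm5 and Cybb, which B cells also express, 16 of the other 21 tested members were lower in KO1 (median -0.23) and 13 were higher in KO2 (median 0.28). The shares over all genes tested were 50.2% and 69.7%.

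**Figure D4:**
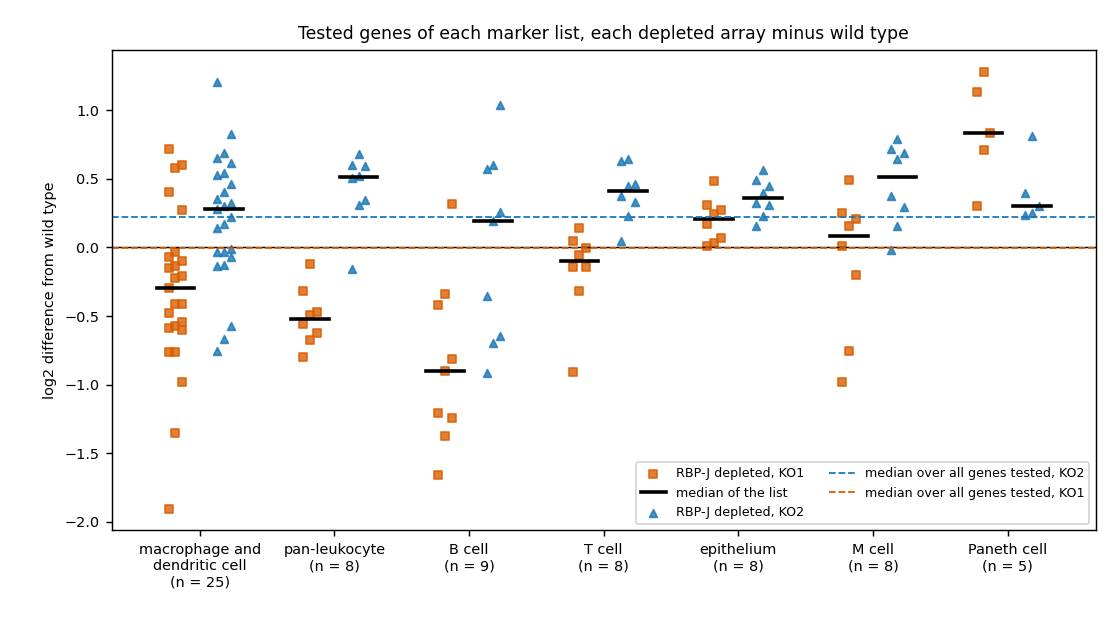
Log2 difference from wild type of the tested genes of each marker list, KO1 as squares and KO2 as triangles, with the median of each list as a black bar and the medians over all genes tested as dashed lines. Macrophage and dendritic cell genes have medians of -0.30 and 0.28, pan-leukocyte genes -0.52 and 0.51, and epithelial genes lie above 0 in both arrays.

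Other genes of the lineage were followed through 6 lists, and limma called 0 of their tested genes in either direction, with 2 at an unadjusted p under 0.05. Of 6 tested ligands of myeloid receptors, 3 were higher in both depleted arrays and none was lower in both. Over all genes tested, 39.0% were higher in both and 19.5% were lower in both. Ccl2, which draws Ccr2-bearing monocytes, read 1.04 against 1.99 and 1.50, and Ccl20, which draws Ccr6-bearing cells to the follicle, 49.9 against 45.2 and 74.6. Of 9 tested myeloid transcription factors, 5 were higher in both and 1 was lower in both, against the same shares. Klf4 and Maf, which epithelium also expresses, read 24.5 against 32.9 and 34.9 and 69.9 against 80.6 and 96.0, and Batf3, which cross-presenting dendritic cells need, 0.402 against 0.167 and 0.132, too dim to be tested.

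Among 8 tested genes of dendritic cell subsets, 6 were lower in KO1, against 50.2% of all genes tested. The medians of the list were -0.45 in KO1 and 0.04 in KO2. Siglech, a lectin of plasmacytoid dendritic cells, read 3.99 in wild type, 0.582 in KO1 and 2.85 in KO2 (fit -1.40, SE 0.54, limma unadjusted p = 0.0093, adjusted p = 0.9997), with wild type the highest. Ccl22, a chemokine of mature dendritic cells, was too dim for the test, at 0.708 against 0.075 and 0.207. Ly75, which encodes DEC-205, read 7.17, 5.64 and 7.08. Siglech and Ccr7, the latter chosen after its values were seen and at 0.085, 0.203 and 1.64, were the 2 genes of the list with an unadjusted p under 0.05.

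The remaining lists held 7 tested genes of resident macrophages, 6 of ITAM signalling and 4 of the NADPH oxidase. Resident macrophage genes had medians of 0.06 and 0.45, and Ctss, the protease that trims the invariant chain, read 55.3 against 63.0 and 85.8. Of these 7, 2 were higher in both depleted arrays, against 39.0% of all genes tested. A further 3 were lower in KO1 and higher in KO2, against 30.7%, and 2 were higher in KO1 and lower in KO2, against 10.8%. Trem2 and Cd5l stayed too dim to test, with Trem2 under the pseudocount in all arrays at 0.070, 0.148 and 0.122 and Cd5l at 0.115, 0.233 and 0.426. ITAM signalling genes, which act downstream of Fcer1g and Tyrobp, had medians of -0.06 and 0.25, with Plcg2 at 10.2, 9.59 and 9.45 and Btk at 0.726, 1.03 and 0.937, and the dim Trem1 at 0.380, 0.558 and 0.471. Of the 6 tested, 5 were lower in KO1 and 4 were higher in KO2, against 50.2% and 69.7% of all genes tested. Btk was the 1 tested gene of this list that was higher in both. All 4 oxidase genes were lower in KO1 and 3 were higher in KO2, against 50.2% and 69.7% of all genes tested. Cybb, their catalytic partner, had that order too. Some gaps were small, with Cyba at -0.12 in KO1 and 2 of the 4 above the KO2 median over all genes. Rac2, the GTPase that activates the oxidase, read 23.1 against 11.8 and 18.2, below wild type in both, and Cyba, the partner chain of Cybb, 23.3 against 21.4 and 38.5.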

How the data were processed

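Biotinylated cRNA was made from total RNA by the Affymetrix procedure, per the labels' protocols. The authors made the deposited linear intensities with MAS5, as the submitters' processing notes name it, and each column has a median of 1, found from the values. No version or scaling target is given in the sources used here. Arrays have no read depth, and their number, 3, limits the precision.

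Probe sets were named by the platform annotation. Of 45101 probe sets, those with a single symbol gave 18193 genes, each by its brightest probe set. Probe sets with a suffix such as _s_at or _x_at can bind transcripts of several genes. A gene was tested when its mean reached 0.598, the 40th percentile of the probe sets' means, which left 11885 genes. Log2(value + 0.248), with the 25th percentile as pseudocount, was fitted in R 4.3.3 with limma 3.58.1 (lmFit, eBayes with trend), leaving 1 residual degree of freedom per gene and adding 600.5 prior degrees of freedom. P-values were Benjamini-Hochberg adjusted over all genes tested, and a call needs an adjusted p under 0.05. The fit was tested on simulated data with noise taken from the depleted pair. It called 18.8% of simulated log2 changes of 1 and 74.8% of those of 2, so smaller differences would mostly be missed.

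The named genes are all members and, for each of 6 lineage and 9 other-cell lists, the 2 genes with the largest common difference in both depleted arrays and the brightest. Ptprc, Ccr7, Gp2, Spib, Sox8, Rbpj, Xist, Gapdh and Actb are named outside this rule. Listed genes that no single-symbol probe set names were not analysed here. The members and lists were chosen with earlier results of these data known. Alternatives were the pseudocount, scaling, probe set choice, filter, trend and leaving out each depleted array.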

Additional observations from a re-analysis of the deposited data

How the results depend on the processing

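No member was called by limma under the main settings or any of the 8 alternatives fitted, with adjusted p-values of 0.9997 or more throughout. At an unadjusted p under 0.05, 2 members passed with probe sets averaged per gene, Fcgr2b and Itgam, 4 with no filter, and 0 under the main settings and each of the others. The share of all genes at that p is given here for the main settings alone. The count of members 2-fold higher or 2-fold lower in both KO1 and KO2 went from 0 to 2 with no filter, where dim genes enter. The median log2 difference of the members lay between -0.10 with quantile normalization and 0.03 under a filter at the 60th percentile, and was -0.07 without 4 members that B cells also express, a choice made after seeing the data. Leaving out either depleted array gave medians of -0.30 and 0.28.

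Members lower in KO1 numbered 19 or 20 of 25 under every scaling, while those lower in KO1 and higher in KO2 went from 12 to 10 with quantile normalization or the same 75th percentile per array and to 9 with centring on the median of the genes tested. Those lower in both went from 8 to 10, 9 and 10 under the same settings. The median over all genes was 0.11 under the main settings and 0.00 with quantile normalization. Fitted differences changed sign for 7 members: Lyz2 (-0.10), Cybb (-0.066) and Irf8 (-0.098) with quantile normalization, Cybb (-0.040) and Irf8 (-0.035) with the same 75th percentile, Cybb (-0.050) and Irf8 (-0.046) with centring, and C1qb (-0.24), Csf2rb (-0.11), Laptm5 (0.17) and Ms4a7 (0.087, against -0.68 by its brightest probe set) with probe sets averaged per gene. The cause was not tested. With a pseudocount of 1 the difference of Cx3cr1 went from -1.62 to -0.86, that of Cd209a from -1.20 to -0.43, of Fcgr1 from 1.17 to 0.42, of Ccr2 from 1.01 to 0.37 and of Cd163 from -0.60 to -0.20. With probe sets averaged per gene Cx3cr1 gave -0.91, Fcgr1 0.50, Ccr2 0.17 and Csf1r 0.068. No paired analysis was possible because the wild type group has 1 array.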

Other observations

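Granulocyte and stromal markers were mostly too dim to be followed. Of 9 neutrophil genes with a probe set, 2 were tested. The granule genes Mpo and Ltf were too dim, at 0.045, 0.457 and 0.313 and at 0.627, 0.225 and 0.254. S100a9, a calcium-binding protein of neutrophils, read 0.590 in wild type, 0.133 in KO1 and 2.33 in KO2, and the summed intensity of the 9 was 3.58, 1.73 and 5.51. Over all genes tested the sum was 127463, 131482 and 157588. Of 9 mast cell and eosinophil genes, 3 were tested, with the lectin Siglecf at 12.4, 17.5 and 13.7, and the mast cell protease Cpa3, at 0.230, 0.191 and 0.064, was under the pseudocount. The 9 summed to 17.5, 22.1 and 19.3, with KO1 the highest. Siglecf, with the same order of arrays, made up most of each sum, so the sums say little of the other genes. Of 8 fibroblast and lymphoid stroma genes, 3 were tested, and the B cell chemokine Cxcl13 read 1.75, 1.05 and 1.62. The collagen gene Col1a2 and the receptor gene Pdgfra were too dim, at 0.039, 0.675 and 0.831 and at 0.341, 0.244 and 0.184. None of these genes was called by limma, and 0 of the tested ones had an unadjusted p under 0.05.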
